A study of Homo sapiens with 6 samples.

Results

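The genes described here encode the enzymes that make, activate and oxidise fatty acids and the proteins that store them in lipid droplets. The set holds 42 genes picked by name for these roles, and all 42 had a row among the 25987 named genes of the count table. Of them, 41 had enough reads to be tested, among 12944 genes tested in all. RNA was sequenced from 786-O, a long-established cell line from a human clear cell renal carcinoma. Its genotype is labelled wild type, and it is known to lack functional VHL. The copper group was 3 cultures of cells adapted to copper, which the labels call chronic Cu. Another 3 cultures without added copper were the controls. Copper sulfate was bound to serum proteins in the cold overnight before that serum went into the medium, and control serum was incubated without copper. One dose of 30 uM is given for the series as a whole. The treatment labels of the 3 copper cultures instead read 30, 31 and 32 uM, and they were taken as 1 group. The labels state neither how long adaptation lasted nor whether the cultures were clones.

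Clear cell carcinoma takes its name from cells that look empty because lipid and glycogen wash out of them during tissue processing. In cells without VHL, hypoxia-inducible factor stays active, and it is known to raise the droplet proteins PLIN2 and HILPDA and to hold down CPT1A, the gate through which long-chain fatty acids enter mitochondria. Fatty acids are built from citrate-derived acetyl-CoA by ACLY, ACACA and FASN. They are desaturated and lengthened by SCD, the FADS and the ELOVL enzymes, and joined to CoA by the ACSL enzymes. They are then either esterified to triglyceride by AGPAT2, LPIN1, DGAT1 and DGAT2, or oxidised in mitochondria 2 carbons at a time. The study asked how copper drives metabolic reprogramming in this cancer, and the comparison of copper with control addresses whether these genes differ in copper-adapted cells.

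Copper libraries ranged from 16301772 to 18189469 counts, and control libraries from 19219090 to 25079913. The nearest pair of libraries within a group differed by a chi-square of 5.40 per degree of freedom over genes, more than sampling noise gives. Each library was counted as a replicate, but this value cannot tell separate cultures from separate preparations of one culture. Replicate 3 of both groups stood apart from replicates 1 and 2, so the counts of called genes, and each log2 fold change of at least 0.1 in size that then moved by more than 1.5 times, are also given for replicates 1 and 2 alone. All 9 markers of the kidney carcinoma line were tested, the lowest at 5.63 CPM, counts scaled to a common library size. None of 16 markers of adipocytes, hepatocytes, leukocytes and red cells had enough reads to be tested, and the highest of them in any library was PLIN1 at 1.15 CPM. In bulk RNA, fewer cells with a transcript and less of it per cell cannot be told apart.

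Levels between genes were compared as CPM per kilobase of transcript. In control cells the droplet coat protein PLIN2 had the highest level of the set, at 169 ± 37.0 CPM per kilobase (SD, n = 3). SCD, which puts the first double bond into saturated fatty acids, followed at 145 ± 12.4, a difference smaller than the spread of PLIN2. PLIN3, a second droplet coat protein, stood at 101 ± 5.14, and ACADVL, the dehydrogenase of very long chains, at 96.8 ± 13.5, which do not differ beyond their spread. The elongase ELOVL5 (90.4 ± 3.62) and ACLY (88.3 ± 4.99) came next. The droplet protein HILPDA, an inhibitor of triglyceride lipase, stood at 71.8 ± 21.5. FASN reached 38.5 ± 5.32 and ACACA, the cytosolic acetyl-CoA carboxylase, 16.9 ± 2.30. Both carnitine palmitoyltransferases were lower, CPT1A at 5.15 ± 0.37 and CPT2 at 3.06 ± 0.2.

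At the low end stood FABP5, a fatty acid binding protein, at 1.32 ± 0.473, ACSL5 at 0.522 ± 0.0876, ACACB, the mitochondrial acetyl-CoA carboxylase, at 0.167 ± 0.0435, and the fatty acid transporter CD36 at 0.0552 ± 0.0417 CPM per kilobase. CD36 had 3, 6 and 5 counts in the copper libraries and 6, 2 and 1 in the control libraries, too few to test. FABP5 has near-identical copies in the genome. The table holds 1 row for such a copy, with 2 counts in all 6 libraries, and how reads matching several genes were handled is not given in the sources used here, so its level is uncertain.

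**Figure D1:**
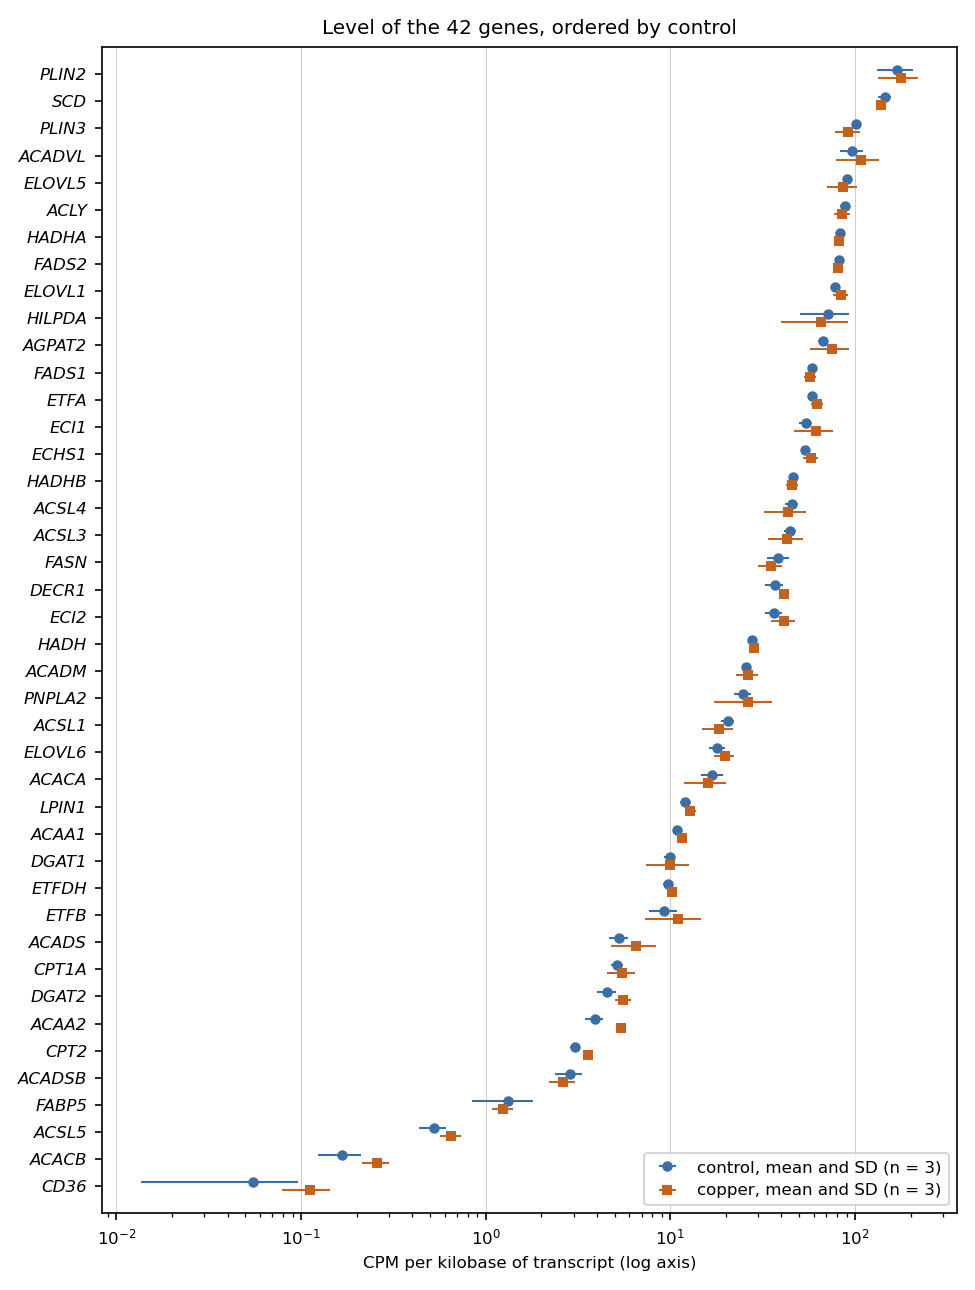
Level of each of the 42 genes in CPM per kilobase of transcript on a log axis, ordered from the highest in control (PLIN2) to the lowest (CD36). Points are means and bars are SDs of 3 libraries, circles for control and squares for copper. Levels run from 169 for PLIN2 to 0.0552 for CD36 in control, and most copper means keep close to control. Wider gaps include CD36 at 0.111 against 0.0552, ACACB at 0.257 against 0.167 and, at a higher level, ACAA2 at 5.40 against 3.91.

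No gene of the set passed the test between copper and control. The count was 0 of 41 at an adjusted p under 0.05 by edgeR's quasi-likelihood test with Benjamini-Hochberg adjustment, and it was also 0 of all 12944 genes (0%). The smallest adjusted p in the set was 1.00. At an unadjusted p under 0.05, 1 of the 41 (2.44%) was called, against 3.52% of all genes. DESeq2 called 0 of the 41 and 0.209% of all genes.

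The differences were small as well as uncalled. Across the 41 genes the median log2 fold change of copper over control was 0.08, against 0.01 for all genes, and 25 of the 41 (61.0%) were above 0, against 51.4% of all genes. The median was 0.0387 without copper replicate 3, 0.043 without control replicate 2 and 0.0154 with counts corrected for transcript length and GC content. The values ran from -0.16 for ACSL1 to 0.58 for ACACB. In 34 of the 41 the absolute log2 fold change was below 0.2, as it was in 77.6% of all genes. For 40 of the 41 the 95% interval lay within a 2-fold change in either direction. The exception was ACACB, whose interval ran from -0.16 to 1.32 on the log2 scale.

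The 3 libraries of one group all lay outside the range of the other group in 4 of the 41 genes (9.76%), namely ACACB, ACSL5, CPT2 and ACAA2, against 10.8% of all genes. All 4 were higher in copper, against 5.45% of all genes with that pattern. When libraries of the same replicate number were compared, copper exceeded control in all 3 pairs for 12 of the 41 genes and lay below it in all 3 for 3. The shares over all genes were 17.7% and 17.0%.

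Fitting the replicate number as a block lowered the typical spread between libraries, as the biological coefficient of variation, from 15.4% to 9.05%. With the block 0 of the 41 were called, against 0.17% of all genes, and the smallest adjusted p in the set was 0.325, for ACAA2. At an unadjusted p under 0.05 the blocked fit called 3 of the 41 (7.32%), ACAA2, ACACB and DGAT2, against 8.41% of all genes. Replicates 1 and 2 alone gave 0 of 41, against 0.856% of all genes, with a smallest adjusted p of 0.104, for PLIN3.

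**Figure D2:**
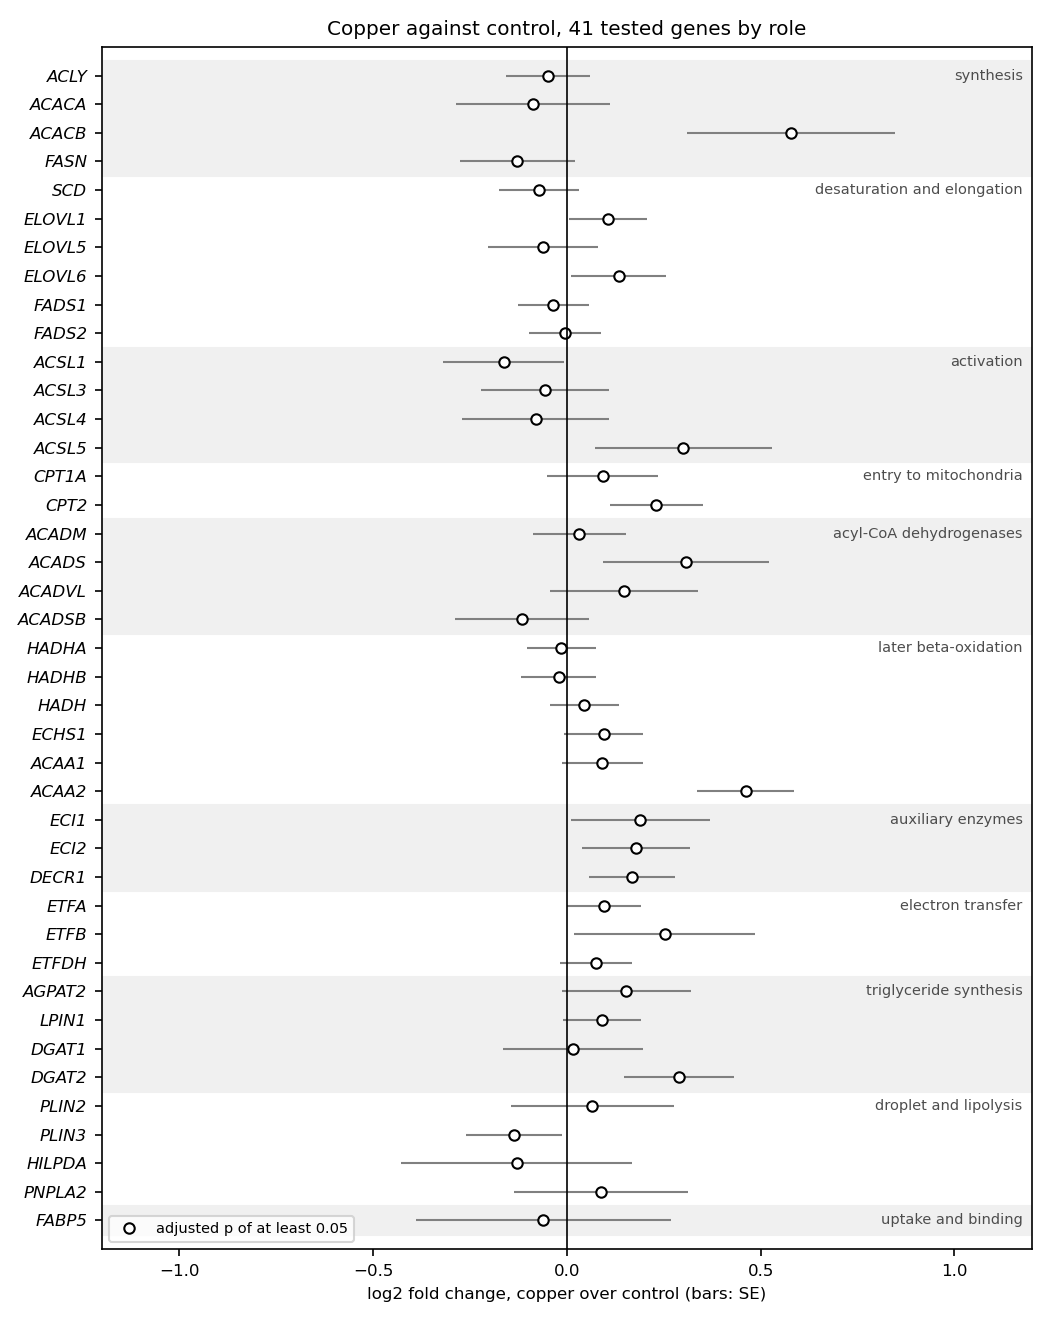
Log2 fold change of copper over control for the 41 tested genes, grouped by role from synthesis at the top to uptake and binding at the bottom, with bars of 1 standard error. Every point is open because none reached an adjusted p under 0.05, and 34 of the 41 lie within 0.2 of 0.

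Among the enzymes of synthesis, 3 of 4 lay slightly below control and none was called. ACLY, which splits citrate to cytosolic acetyl-CoA, measured 388, 396 and 328 CPM in copper replicates 1 to 3 and 398, 394 and 358 in control. ACACA, the step that commits acetyl-CoA to synthesis, measured 171, 191 and 114 CPM in copper and 165, 193 and 147 in control. For both, the lowest library of each group was replicate 3 and the groups overlapped. FASN, which assembles palmitate, measured 258, 299 and 347 CPM in copper and 277, 351 and 361 in control. Each copper library lay below the control library of its number, but the groups overlapped, and the log2 fold change was -0.13 with a standard error (SE) of 0.15.

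ACACB makes the malonyl-CoA that inhibits CPT1A. It measured only 2.87, 2.08 and 2.27 CPM in copper and 1.73, 1.86 and 1.10 in control. All copper libraries lay above all control libraries, and the log2 fold change of 0.58 (SE 0.27, unadjusted p = 0.0544) was the highest of the set at one of its lowest levels. With the replicate block the unadjusted p was 0.0267 and the adjusted p 0.54.

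The 6 genes of desaturation and elongation lay between -0.07 (SCD) and 0.13 (ELOVL6) in log2 fold change. SCD measured 717, 776 and 728 CPM in copper and 706, 837 and 793 in control, and the groups overlapped. FADS1 and FADS2, which desaturate polyunsaturated chains, differed by -0.03 and -0.01. These neighbours lie in opposite directions on chromosome 11 and they overlap by 801 bases at their starts. Whether counting used strand is not given in the sources used here, so reads from that stretch may be shared between them. ELOVL1 (0.11), ELOVL5 (-0.06) and ELOVL6 (0.13) did not pass the test either. They stood at 0.07, 0.06 and 0.26 in replicates 1 and 2 alone.

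Of the acyl-CoA synthetases, which activate fatty acids by joining them to CoA, ACSL1 (-0.16), ACSL3 (-0.06) and ACSL4 (-0.08) lay below 0 and ACSL5 above it. The first 3 were at -0.08, 0.05 and 0.06 in replicates 1 and 2 alone. ACSL5 measured 2.07, 2.52 and 2.00 CPM in copper and 1.93, 1.42 and 1.94 in control, so its groups were apart by a narrow margin at a low level. Its log2 fold change of 0.30 had an SE of 0.23.

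Entry to mitochondria differed little. CPT1A (chr11:68754620-68844277) measured 33.8, 28.5 and 24.0 CPM in copper and 28.3, 27.8 and 24.7 in control, and the lowest copper library lay below every control library. CPT2, which hands the fatty acid back to CoA inside the mitochondrion, measured 11.0, 11.3 and 11.0 CPM in copper and 10.1, 8.92 and 9.33 in control. Its groups did not overlap, and its log2 fold change was 0.23 (SE 0.12, unadjusted p = 0.0908).

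ACAA2 had the smallest p of the set. It encodes the thiolase that cleaves acetyl-CoA off the shortened chain at the end of each round of mitochondrial beta-oxidation. The gene lies at chr18:49782164-49813533 of RefSeq GRCh38.p14 on the minus strand. It measured 16.9, 18.3 and 18.9 CPM in copper (18.1 ± 1.02, SD, n = 3) and 14.8, 12.5 and 12.1 in control (13.1 ± 1.46, SD, n = 3). Every copper library lay above every control library, by 0.20, 0.55 and 0.65 on the log2 scale in the pairs of the same number. The log2 fold change of 0.46 had an SE of 0.13, an interval of 0.11 to 0.81 and an unadjusted p of 0.00645, which adjustment over 12944 genes raised to 1.00. With the replicate block the adjusted p was 0.325.

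The 250 bases before the RefSeq start of ACAA2, the member with the smallest p, are shown in the gene's direction (GRCh38.p14, chr18:49813534-49813783, minus strand).
ACAA2: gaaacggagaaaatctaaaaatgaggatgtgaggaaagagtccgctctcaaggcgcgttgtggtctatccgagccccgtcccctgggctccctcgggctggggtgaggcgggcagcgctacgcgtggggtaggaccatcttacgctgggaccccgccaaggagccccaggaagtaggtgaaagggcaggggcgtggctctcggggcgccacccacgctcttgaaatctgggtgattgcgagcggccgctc
Nothing is in capitals because none of 4 motifs searched on both strands occurs in these letters. The motifs were the hypoxia element core ACGTG, the sterol element TCACNCCAC, the antioxidant element TGACNNNGC and the metal element core TGCACNC or TGCGCNC, N being any base.

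The other enzymes of the beta-oxidation cycle lay closer to 0. HADHA and HADHB, the subunits of the trifunctional protein, differed by -0.01 and -0.02 in log2 fold change, HADH by 0.05, ECHS1 by 0.10 and the peroxisomal thiolase ACAA1 by 0.09. Among the acyl-CoA dehydrogenases, which take the first oxidative step, the medium-chain enzyme ACADM differed by 0.03 and ACADSB, the enzyme of short branched chains, by -0.12 (0.14 in replicates 1 and 2 alone). ACADS, the short-chain enzyme, measured 12.9, 9.20 and 16.2 CPM in copper and 9.89, 9.36 and 11.7 in control. Its lowest value of all 6 was a copper library, and its log2 fold change was 0.31 (SE 0.21), or 0.19 in replicates 1 and 2 alone. ACADVL measured 217, 206 and 324 CPM in copper and 200, 214 and 260 in control, a log2 fold change of 0.15 (SE 0.19), with replicate 3 high in both groups. Without replicate 3 of both groups it was 0.03.

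All 3 auxiliary enzymes for unsaturated chains lay above 0 and none was called. DECR1, the dienoyl-CoA reductase, measured 77.5, 68.7 and 72.7 CPM in copper and 73.0, 59.7 and 62.0 in control (0.17, SE 0.11). The isomerase ECI2 measured 56.9, 59.8 and 75.1 CPM in copper and 55.6, 50.9 and 63.0 in control (0.18, SE 0.14). In both genes each copper library exceeded the control library of its number while the groups overlapped. ECI1 differed by 0.19, or by 0.06 in replicates 1 and 2 alone. The electron transfer proteins that carry electrons from the dehydrogenases to the respiratory chain also lay above 0, ETFA by 0.10, ETFB by 0.25 and ETFDH by 0.08. The value of ETFB was 0.09 in replicates 1 and 2 alone.

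The 4 enzymes of triglyceride synthesis had log2 fold changes of 0.02 to 0.29. DGAT2, which adds the last fatty acid, measured 14.3, 12.1 and 14.7 CPM in copper and 12.6, 10.1 and 10.7 in control. Each copper library exceeded the control library of its number, one copper library lay inside the control range, and the log2 fold change was 0.29 (SE 0.14, unadjusted p = 0.0772). DGAT1, which catalyses the same reaction, measured 32.6, 30.6 and 48.4 CPM in copper and 34.6, 36.0 and 39.8 in control. Copper replicates 1 and 2 were its lowest libraries and copper replicate 3 its highest. DGAT1 overlaps the end of the oppositely directed HSF1 by 137 bases, so strand use bears on it as on the FADS pair. AGPAT2 (0.15) and LPIN1 (0.09), the acyltransferase and phosphatase of the preceding steps, were not called. AGPAT2 was at -0.02 and DGAT1 at -0.16 in replicates 1 and 2 alone.

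The droplet proteins showed no called difference with copper. PLIN2 (chr9:19108388-19127492 of RefSeq GRCh38.p14) measured 306, 292 and 446 CPM in copper and 297, 284 and 416 in control. HILPDA (chr7:128455878-128458418) measured 65.5, 71.6 and 128 CPM in copper and 82.3, 77.9 and 130 in control. In both genes replicate 3 of each group stood far above replicates 1 and 2, and the groups overlapped. The log2 fold changes were 0.07 (SE 0.21) for PLIN2 and -0.13 (SE 0.30) for HILPDA. PLIN3 differed by -0.14. In replicates 1 and 2 alone PLIN2 was at 0.04, HILPDA at -0.23, PLIN3 at -0.23 and PNPLA2 at -0.14. PNPLA2, the lipase that starts the breakdown of stored triglyceride, measured 53.3, 49.6 and 89.4 CPM in copper and 56.5, 56.8 and 67.6 in control (0.09, SE 0.22). FABP5 differed by -0.06 with an SE of 0.33.

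**Figure D3:**
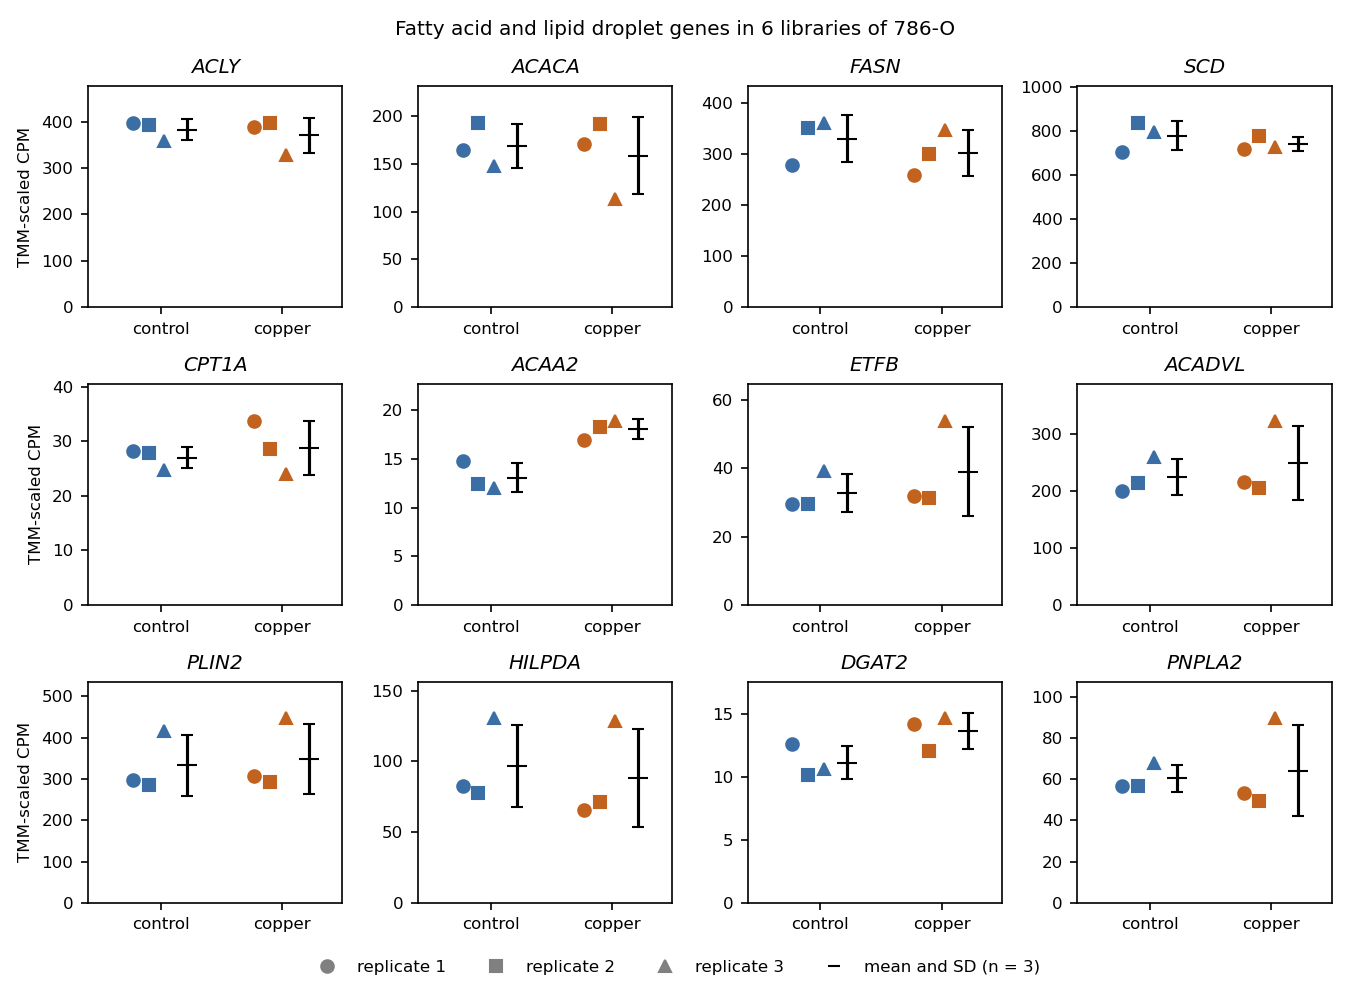
TMM-scaled CPM of 12 of the genes in each library, from 0 upward, with control on the left and copper on the right of each panel. Circles, squares and triangles are replicates 1, 2 and 3, and the bar gives the mean and SD of 3 libraries. Triangles lie at the top of both groups for PLIN2, HILPDA, ETFB, ACADVL and PNPLA2, and for FASN by a narrow margin in control. For ACAA2 all copper points lie above all control points.

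Replicate 3 differed from replicates 1 and 2 in far more of these genes than copper did from control. With group as a term, 11 of the 41 (26.8%) were called, against 29.6% of all genes. Higher in replicate 3 were 7 of the 41 (17.1%), against 15.3% of all genes, and lower were 4 (9.76%), against 14.3%. The labels give no batch or day, so what sets replicate 3 apart is not stated.

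Some genes of the lipid droplet were among those higher in replicate 3, but not all. PLIN3 did not pass the test (0.24, adjusted p = 0.0506). Among droplet genes outside the set, ABHD5 (-0.71, adjusted p = 0.00418) and FITM2 (-0.51, adjusted p = 0.0062) were lower. G0S2 was higher (0.50, adjusted p = 0.0128). HILPDA rose by 0.80 on the log2 scale (SE 0.09, adjusted p = 0.000638) and PLIN2 by 0.55 (SE 0.07, adjusted p = 0.00149). PNPLA2 rose by 0.53, DGAT1 by 0.40 and, in mitochondrial oxidation, ETFB by 0.60, ACADVL by 0.47 and ECI2 by 0.30. ETFB measured 31.9, 31.1 and 53.9 CPM in copper and 29.4, 29.6 and 39.2 in control, so its replicate 3 was the highest library in each group. VEGFA, a hypoxia-inducible gene in the marker list, moved with them. It measured 376, 488 and 1043 CPM in copper and 529, 494 and 958 in control. Its part in the difference of the droplet genes was not tested.

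Lower in replicate 3 were ACACA by -0.47, ACSL1 by -0.36, ACSL3 by -0.38 and ACSL4 by -0.43. Of the 4 acyl-CoA synthetases in the set only ACSL5, the one at a low level, was not called (-0.01, SE 0.23). FASN (0.26, adjusted p = 0.0888) and SCD (0.00, adjusted p = 0.986) did not pass the test.

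**Figure D4:**
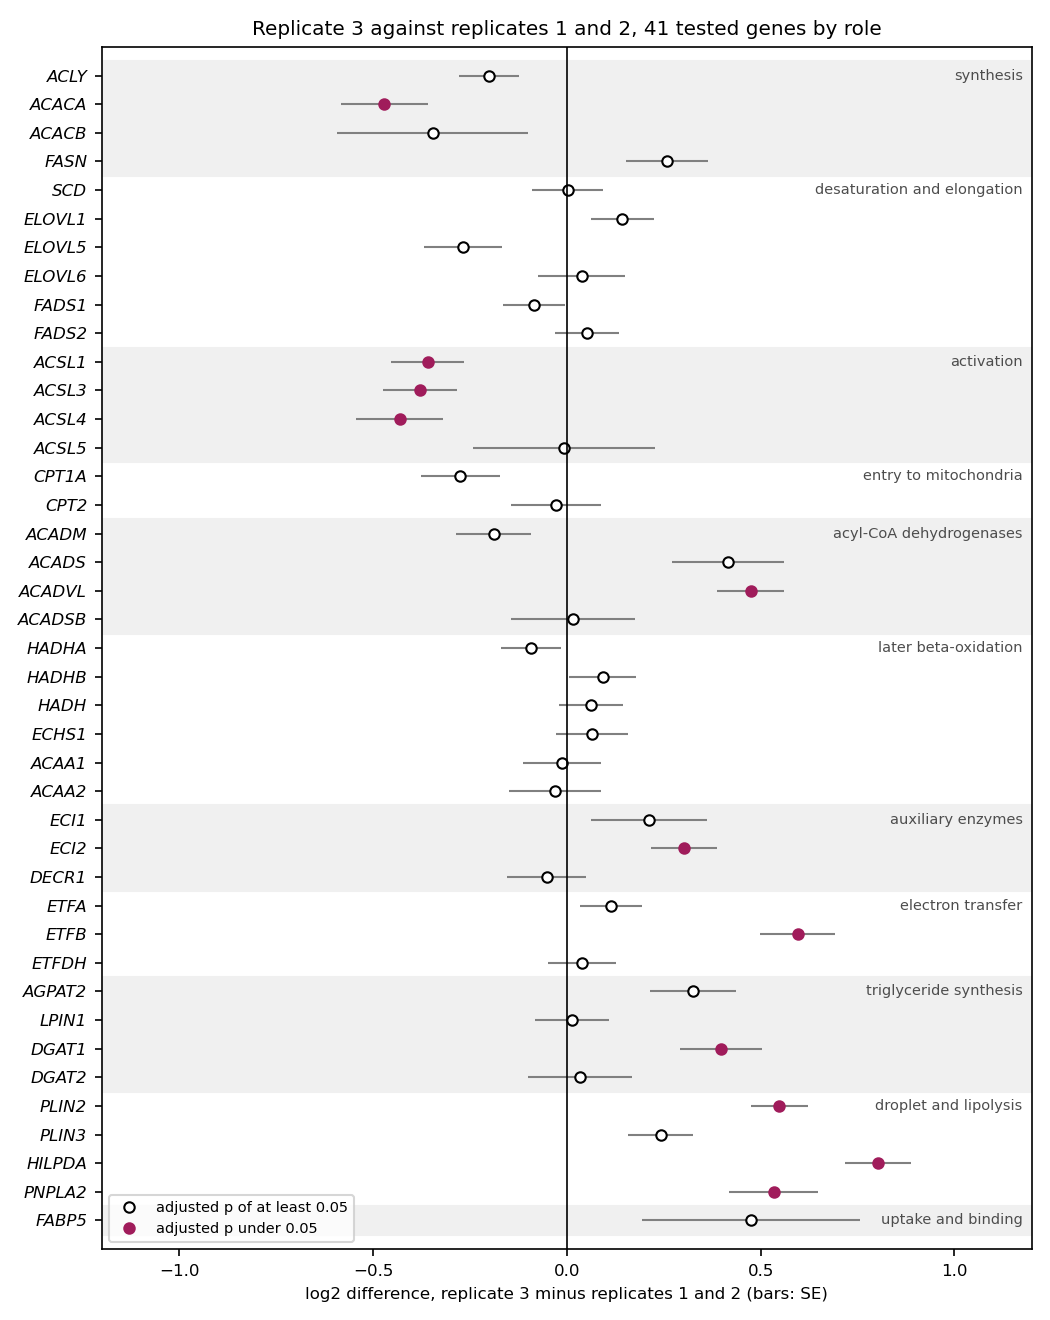
Log2 difference of replicate 3 from replicates 1 and 2, with group as a term, for the 41 tested genes by role, with bars of 1 standard error. Filled points are the 11 genes with an adjusted p under 0.05, 7 to the right of 0 with HILPDA farthest at 0.80 and 4 to the left with ACACA farthest at -0.47.

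PLIN2 is the member with the second smallest p for replicate 3, and HILPDA, the first, has no entry in the promoter table. PLIN2 was chosen for display after its values were seen. The 250 bases before its RefSeq start follow in the gene's direction (GRCh38.p14, chr9:19127493-19127742, minus strand), with matches to the hypoxia element core ACGTG in capitals.
PLIN2: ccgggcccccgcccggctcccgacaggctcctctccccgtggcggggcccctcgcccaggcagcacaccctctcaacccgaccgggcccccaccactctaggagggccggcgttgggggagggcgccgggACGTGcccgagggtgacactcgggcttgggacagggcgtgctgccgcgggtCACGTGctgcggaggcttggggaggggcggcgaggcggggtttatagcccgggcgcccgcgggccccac
The core begins 120 bases before the start and again 68 bases before it. The second place is the palindrome CACGTG, which holds the core on both strands, so there are 3 matches in all. None of the other 3 motifs occurs in these letters.

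Over whole windows of 300 bases (250 before and 50 after each start), RefSeq gave 55 promoters for the genes of the set, several for some genes and none for 8. ACGTG occurred in 9 of the 55 (16.4%), against 21.4% of 35116 promoters of all genes. The sterol element occurred in 3.64% against 1.13%, the antioxidant element in 14.5% against 13.3% and the metal element core in 20% against 29.6%. A match is a description of the letters and not evidence of binding.

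Whether the difference between copper and control was the same in replicate 3 as in replicates 1 and 2 was tested with an interaction term. Replicate 3 has 1 library in each group, so its spread was assumed to be that between replicates 1 and 2, with 2 residual degrees of freedom. The test called 6 of the 41 (14.6%), against 11.3% of all genes. The copper difference was higher in replicate 3 in 2 of the 41, DGAT1 and PNPLA2, against 2.91% of all genes. It was lower in 4, ACADSB, ACSL4, ELOVL5 and ACSL3, against 8.41% of all genes. Of these 6, ELOVL5, ACSL3, ACSL4 and ACADSB are named because they were called, after their values were seen.

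In PNPLA2, the log2 difference of copper from control was -0.08, -0.20 and 0.40 for replicate numbers 1, 2 and 3. In ACSL4 it was 0.05, 0.06 and -0.45. ACSL4 prefers arachidonate and measured 254, 274 and 163 CPM in copper and 246, 262 and 223 in control. Its copper replicate 3 was thus the lowest of the 6 libraries, while in PNPLA2 the same library was the highest. ELOVL5 measured 295, 295 and 211 CPM in copper and 273, 291 and 271 in control, again with copper replicate 3 lowest.

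Transcript length moved with these differences. Across the 41 genes the interaction estimate had a Spearman rho of -0.42 with the length of the longest annotated transcript, and across 12846 genes the rho was -0.45. These are descriptions across genes of the same libraries, and genes are not independent replicates. For copper against control the rho was -0.25 across the 41 genes and -0.37 across 12846 genes. In replicates 1 and 2 alone it was 0.10 across the 41 genes and -0.05 across 12762. A correction for length and GC content removes such a trend by design, so a rho near 0 after it is not a result. Once the counts had been corrected, library by library, for length and GC content, the rho of the interaction was -0.08 and the test called 0 of the 41 and 22 of 12846 genes. For replicate 3 against replicates 1 and 2 the rho without correction was -0.58 across the 41 genes and -0.38 across 12846 genes. The corrected fit called 14 of the 41, against 34.5% of all genes. Of the 11 called without correction 9 were among them. ACSL3 and DGAT1 were not, ACLY, ELOVL6, FADS2, ECHS1 and ACAA1 were called in addition, and HILPDA still rose by 0.63 and PLIN2 by 0.46.

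**Figure D5:**
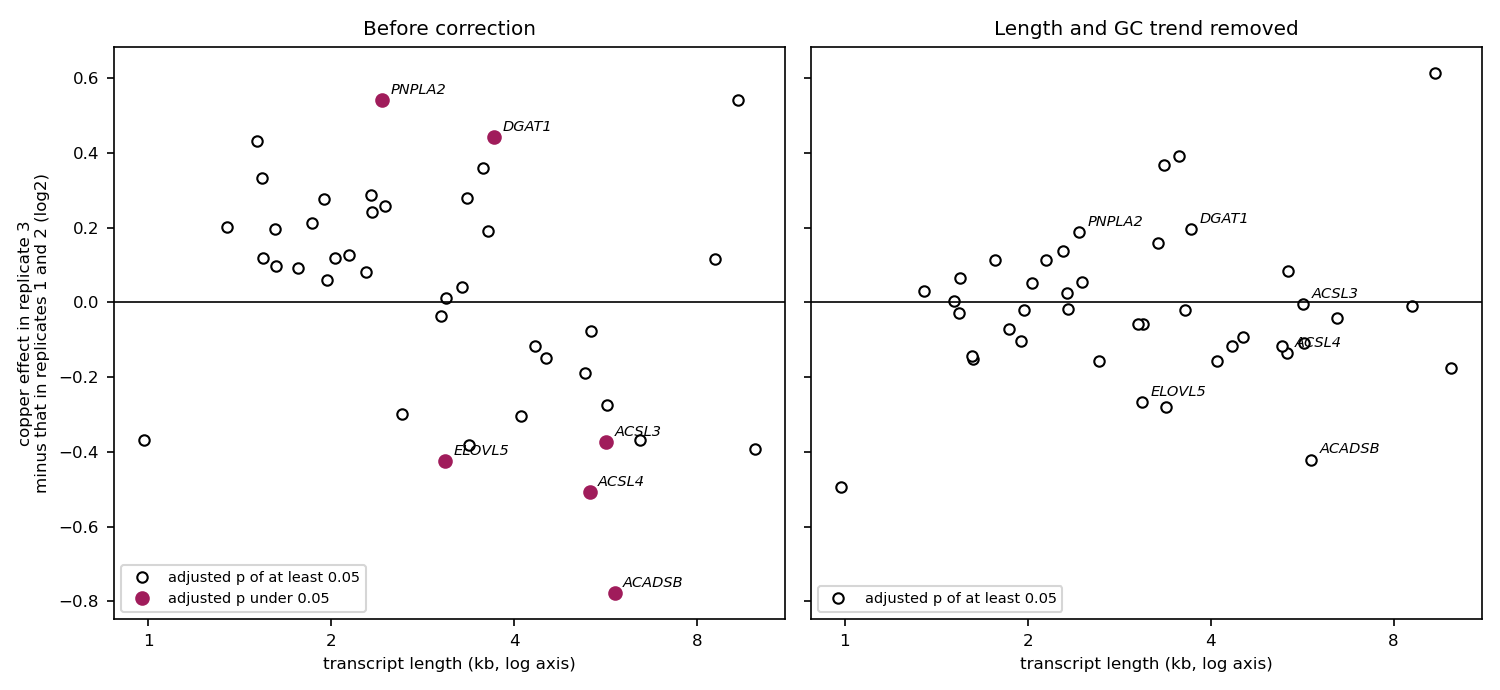
The copper effect in replicate 3 minus that in replicates 1 and 2 (log2) against transcript length in kilobases on a log axis, for the 41 tested genes. The correction used in the right panel removes the length trend by design. On the left, as fitted, the 6 filled points have an adjusted p under 0.05 and values fall with length (rho -0.42). On the right, after correction for length and GC content, no point is filled and rho is -0.08.

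A further 87 genes of fatty acid and droplet metabolism were listed from general knowledge, and 66 had enough reads to be tested. None of the 66 passed the test of copper against control by edgeR or DESeq2. By edgeR 3 had an unadjusted p under 0.05, against 3.52% of all genes. Above 0 lay 40, against 51.4% of all genes, with a median log2 fold change of 0.03, against 0.01 for all genes. The groups did not overlap in 9 of the 66, against 10.8% of all genes, and 6 of these were higher in copper, against 5.45%. Replicate 3 differed in 23 of the 66 (13 higher, 10 lower), against 29.6% of all genes, and the interaction was called in 7, against 11.3% of all genes.

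The 3 smallest p-values above 0 belonged to GPAT3, PPARG and G0S2. GPAT3, which starts triglyceride synthesis on glycerol phosphate, measured 24.3, 25.4 and 23.5 CPM in copper and 18.9, 14.8 and 20.1 in control, with no overlap (0.44, SE 0.14, unadjusted p = 0.0118). PPARG, a nuclear receptor that drives lipid storage genes, measured 16.2, 17.4 and 18.7 CPM in copper and 14.6, 14.8 and 13.0 in control, again apart (0.30, SE 0.12, unadjusted p = 0.0342). G0S2, an inhibitor of the lipase PNPLA2, measured 80.8, 86.1 and 142 CPM in copper and 69.8, 63.6 and 77.3 in control (0.55, SE 0.22, unadjusted p = 0.0363). Its groups were apart, with copper replicate 3 far above the rest. It rose in replicate 3 by 0.50, and its copper effect differed between replicate 3 and replicates 1 and 2 by the interaction test (0.56, adjusted p = 0.0169). In replicates 1 and 2 alone its log2 fold change was 0.32, and that of PPARG was 0.19. With the replicate block its adjusted p was 0.325, and that of GPAT3 was 0.354.

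Below 0, the smallest p-values belonged to PPARA (-0.22), GPAT4 (-0.14) and FABP3 (-0.23), with unadjusted p of 0.129, 0.161 and 0.201. GPAT4 measured 55.1, 49.1 and 50.8 CPM in copper and 55.5, 58.8 and 56.7 in control, apart by a narrow margin. FABP3 measured 2.99, 3.20 and 2.86 CPM in copper and 3.30, 3.58 and 3.82 in control, also with no overlap. PPARA, the receptor that induces fatty acid oxidation genes, measured 80.3, 88.6 and 63.6 CPM in copper and 87.6, 94.2 and 89.8 in control, with one copper library inside the control range. In replicates 1 and 2 alone PPARA was at -0.10 and FABP3 at -0.14. SREBF1, the regulator of lipid synthesis genes, measured 58.0, 45.1 and 64.5 CPM in copper and 53.1, 51.2 and 56.6 in control (0.06, SE 0.14). INSIG1, the sterol sensor that retains it in the endoplasmic reticulum, differed by -0.06 with copper and rose by 0.43 in replicate 3. PPARGC1A, a coactivator of mitochondrial genes, was at 0 CPM in 3 of the 6 libraries and at most 0.21 in the others, and was not tested.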

How the data were processed

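RNA-seq of 6 libraries, 3 per group, was used. Per the labels' protocols, a directional kit was applied to total RNA. STAR, FastQC, edgeR and the build GRCh38 are named in the submitters' processing notes, without role. The authors deposited raw counts per gene; counting program and strand use are not given in the sources used here. Of the table's rows, 5 had no symbol (0.000814% of counts) and were left out. Of the 42 genes, 32 had both deposited ends within 1000 bases of RefSeq GRCh38.p14. ACACA did not, so RefSeq positions are printed. Its deposited row stands at chr17:1320992-1645992, away from the RefSeq gene at chr17:37084992-37406836. Whether this affects its counts was not tested.

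Genes were kept with edgeR 4.0.16 (R 4.3.3) filterByExpr (minimum count 10, minimum total 15), scaled by TMM and fitted by group alone with the quasi-likelihood test in its robust form. Adjustment was Benjamini-Hochberg over all genes tested, with calls under 0.05. A prior count of 2 entered the log2 fold changes, and the 95% intervals had 4 residual degrees of freedom. P-values measure the spread between these cultures, which the labels do not say were independent. CPM per kilobase used the longest GENCODE 29 basic transcript. The scripts were tested on simulated counts. The simulated spread was smaller than that of the fit by group alone, so it does not show which differences that fit could detect.

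The 42 genes and the lists were chosen with earlier results of these data known. All 42 are accounted for. Values per library are given for the 8 genes with the smallest p for copper, the 4 with the smallest p for replicate 3, and 10 chosen for their role, some of which fall under more than one of these. ACSL4, ELOVL5 and CD36 were added after their values were seen. Of other genes, the 3 with the smallest p in each direction and 5 regulators are named.

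Both groups carry replicate numbers 1 to 3. Deviations of same-numbered libraries from their group means correlated at 0.46, 0.40 and 0.65 across genes, all above the minimum of 0.1 set for pairing, so a fit with the replicate block is given too. No label ties a number to a day or batch. Alternatives were other scalings and filters, DESeq2 1.42.0, limma-voom (limma 3.58.1), a prior count of 0.125, the block, a term for replicate 3, replicates 1 and 2 alone and the omission of single libraries. A correction of every library for transcript length and GC content, by splines of 4 degrees of freedom, was added after seeing the data.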

Additional observations from a re-analysis of the deposited data

Results flagged for a closer look

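In 6 of the 41 genes of the set (14.6%) the copper effect differed between replicate 3 and replicates 1 and 2. The share over all genes was 11.3%. Of the 66 other genes 7 were called, of which only G0S2 is given here. The test was the interaction test of edgeR (adjusted p under 0.05), with 1 library per group in replicate 3. The log2 difference of the effects was -0.78 for ACADSB, -0.51 for ACSL4, -0.42 for ELOVL5, -0.37 for ACSL3, 0.44 for DGAT1, 0.54 for PNPLA2 and 0.56 for G0S2. After correction for length and GC content, the values in the set were -0.42 for ACADSB, -0.14 for ACSL4, -0.27 for ELOVL5, 0.00 for ACSL3, 0.20 for DGAT1 and 0.19 for PNPLA2, and none was called.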

How the results depend on the processing

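In copper against control the count of called genes of the set was 0 under every alternative run, the replicate block and each library left out included. Over all genes, 204 of 12846 were called with the replicate block and the length and GC correction together. Replicates 1 and 2 alone called 111 of 12966 genes, and each other alternative called 58 or fewer. The smallest adjusted p in the set was 0.0664, with the replicate block and the length and GC correction together. Genes with groups apart numbered 16 in replicates 1 and 2 alone and 4 to 11 with a library left out, when fewer libraries are compared. The 16 were 39% of the set, against 44.1% of all genes. There were 11 (26.8%) without copper replicate 2 or 3, against 21.2% and 33.3% of all genes, and 9 (22%) without control replicate 1 or 3, against 17.3% and 20%. The median log2 fold change was 0.0154 with the length and GC correction. With a filter, replicate 3 called 11 to 14 genes of the set over the alternatives. The shares over all genes were 26.7% (DESeq2) to 34.5% (length and GC correction). Without a filter it called 16, against 19.5% of 22806 genes, which then include those with too few reads for the main test. The interaction called 3 with DESeq2 (4.57% of all genes) and 0 with the length and GC correction (0.171%). Under the others it called 5 to 8, against 8.7% (without a filter, where it called 8) to 11.2% of all genes. Of the log2 fold changes of the 41 genes under 16 alternatives (not the length and GC correction, the replicate 3 term or the block with DESeq2), 604 kept their sign and 52 did not, all uncalled.

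Opposite signs in replicates 1 and 2 alone were 0.0183 for ACACA, 0.063 for ELOVL5, 0.0122 for FADS1, 0.0467 for ACSL3, 0.0574 for ACSL4, 0.14 for ACADSB, -0.0154 for AGPAT2, -0.16 for DGAT1, -0.14 for PNPLA2 and 0.0854 for FABP5. Upper-quartile and total-count scaling gave FADS2 0.0193 and 0.0227, HADHA 0.00753 and 0.0127 and HADHB 0.00329 and 0.00634. DGAT1 was -0.0037 without a filter, -0.0103 with limma-voom and -0.0105 with the replicate block, and FABP5 was 0.0153 with limma-voom.

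With each library left out in turn the ranges were -0.10 to 0.0327 for ACLY, -0.25 to 0.10 for ACACA, -0.14 to 0.083 for ELOVL5, -0.0934 to 0.0161 for FADS1, -0.0565 to 0.0321 for FADS2, -0.18 to 0.11 for ACSL3 and -0.23 to 0.12 for ACSL4. They were -0.0407 to 0.20 for CPT1A, -0.0644 to 0.14 for ACADM, -0.0883 to 0.26 for ACADVL, -0.22 to 0.0191 for ACADSB, -0.0395 to 0.0223 for HADHA, -0.0761 to 0.0213 for HADHB and -0.0532 to 0.40 for ETFB. They were -0.0495 to 0.29 for AGPAT2, -0.22 to 0.13 for DGAT1, -0.15 to 0.26 for PLIN2, -0.50 to 0.14 for HILPDA, -0.23 to 0.24 for PNPLA2 and -0.31 to 0.17 for FABP5. The cause was not tested. At 3 libraries per group and at these depths, differences as small as most of those seen could not be told from the spread, and CD36, ACACB, ACSL5 and FABP5 rest on few counts.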
